A study of Homo sapiens with 6 samples.

Results

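The complement genes examined here in PC-3 tumors were the membrane regulators CD46, CD55 and CD59, the proteases C1R and C1S, the components C3 and CFB, and the secreted regulators SERPING1 and CLU. They are 9 of the 24000 gene entries of the table. They were chosen from values of these same tumors, because CD55 was 1 of the 7 entries with an adjusted p under 0.05 when WCE replicate 1 was left out of the comparison (0.0527% of the 13287 entries tested), and the other 8 genes were added as parts of the same system. The difference between WCE-treated and vehicle-treated tumors is therefore given for these genes as a description, with no test. All 9 genes had a mean above the minimum of 0.5 FPKM that was set for testing.

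PC-3 cells are an established line of human prostate carcinoma and grow without androgen. The tumors grew in nude mice. The methods describe male athymic mice, obtained at 6 weeks of age, and cells that carry firefly luciferase and were placed in the anterior prostate. RNA of 3 tumors from vehicle-treated mice and 3 tumors from mice given WCE, a standardized extract of the herb Wedelia chinensis, was sequenced, and the labels give 10 weeks of treatment for all 6. The labels give no dose, and the text of the study names 10 mg/kg for 7 weeks in its results and 30 mg/kg in its methods for oral WCE. All tumors derive from 1 cell line, and nude mice lack a thymus but keep their myeloid cells and their own complement.

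Complement is a set of plasma proteins that mark and lyse cells. The C1 complex, whose proteases are C1R and C1S, starts the classical pathway, and factor B, the product of CFB, supplies the protease of the alternative pathway. Both routes meet at C3, whose cleavage tags a surface and leads to the pore of the terminal pathway. Human cells protect themselves with CD55, which speeds the decay of the C3 convertases, with CD46, a cofactor for the cleavage of C3b and C4b, and with CD59, which blocks the last step of pore assembly. SERPING1 encodes C1 inhibitor, which inactivates C1R and C1S, and CLU encodes clusterin, a secreted chaperone that also binds terminal complexes. Carcinoma cells commonly carry all 3 membrane regulators.

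A pair of libraries from different groups was nearly the same. Over the 1915 entries with a mean of at least 50 FPKM, the median absolute log2 difference between vehicle replicate 3 and WCE replicate 1 was 0.0276, against 0.0950 to 0.247 in the other 14 pairs. WCE replicate 1 had 15805 entries above 0, and vehicle replicate 3 had values above 0 in every one of them, whereas each of the other tumors was at 0 in 329 to 546 of these entries. The 9 genes differed between these libraries by at most 0.15 on the log2(FPKM + 1) scale, with a median of 0.043. Each log2 fold change between groups is therefore given with all 6 tumors and with both libraries left out. Read counts were not in the table, and its lowest values give only the relative depth, which was 25.0% of that of vehicle replicate 3 in WCE replicate 1 and 64.8% to 85.2% in the other 4 tumors.

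The line was checked by its markers. The keratins KRT8, KRT18 and KRT19 summed to between 840 and 1169 FPKM in each tumor and KLK3, a prostate marker that the line lacks, was listed at 0 in all 6. The human entries of host cell markers were mostly low. Host cells are mouse cells and the handling of mouse reads is not given, so these values do not measure how many host cells a tumor held. Of 6 stromal markers 3 had a mean of at least 1 FPKM. The sum of the 6 lay between 42.1 and 56.4 FPKM in vehicle-treated tumors and at 55.9, 12.8 and 53.7 FPKM in WCE replicates 1 to 3. Most of this sum came from a single marker in every tumor. Of 5 endothelial markers 1 had a mean of at least 1 FPKM, and EMCN was listed at 0. The 7 myeloid markers summed to 25.8 to 41.2 FPKM in vehicle-treated and 40.1 to 44.4 FPKM in WCE-treated tumors, nearly all of it CD68, while TYROBP was listed at 0 in every tumor. Liver markers summed to 0.485 to 0.808 FPKM in vehicle-treated and 0.988 to 1.48 FPKM in WCE-treated tumors, with TTR at 0. In 4 red blood cell markers no tumor exceeded a sum of 0.285 FPKM. The part of other cells in the values below was not tested, and in whole tumors fewer cells of a type and less RNA per cell cannot be told apart.

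Promoter sequences were at hand for 5 of the 9 genes in RefSeq (GRCh38.p14), each from 250 bases before an annotated start to 50 bases from it, and 4 windows are shown because they belong to the 3 membrane regulators and to the component whose level differed widely between tumors. Capitals mark matches, on either strand, to the AP-1 site TGANTCA, the GC box GGGCGG, the CRE core TGACG, the STAT site TTCNNNGAA, the TATA box TATAAA and the NFκB consensus. Where matches overlap, the capitals run on. CD55 lies at chr1:207321428-207321727 on the plus strand, CD46 at chr1:207751788-207752087 on the plus strand, CD59 at chr11:33736430-33736729 on the minus strand and CFB at chr6:31945845-31946144 on the plus strand.
CD55: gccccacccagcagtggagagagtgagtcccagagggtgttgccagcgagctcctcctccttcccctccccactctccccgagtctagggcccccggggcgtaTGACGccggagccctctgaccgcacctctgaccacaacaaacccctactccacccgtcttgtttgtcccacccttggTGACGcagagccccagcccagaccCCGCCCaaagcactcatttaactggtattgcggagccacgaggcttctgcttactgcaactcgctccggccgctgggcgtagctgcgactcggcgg
CD46: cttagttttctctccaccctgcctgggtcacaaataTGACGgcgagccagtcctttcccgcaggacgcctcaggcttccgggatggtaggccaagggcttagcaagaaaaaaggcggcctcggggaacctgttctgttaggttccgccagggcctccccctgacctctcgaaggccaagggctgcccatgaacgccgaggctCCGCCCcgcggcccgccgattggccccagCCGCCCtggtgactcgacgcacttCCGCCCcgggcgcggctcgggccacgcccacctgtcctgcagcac
CD59: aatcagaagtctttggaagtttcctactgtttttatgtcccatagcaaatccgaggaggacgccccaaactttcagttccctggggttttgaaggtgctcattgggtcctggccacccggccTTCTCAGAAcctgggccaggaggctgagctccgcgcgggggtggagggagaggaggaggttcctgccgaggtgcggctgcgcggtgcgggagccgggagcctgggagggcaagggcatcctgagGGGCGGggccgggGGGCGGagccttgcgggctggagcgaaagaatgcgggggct
CFB: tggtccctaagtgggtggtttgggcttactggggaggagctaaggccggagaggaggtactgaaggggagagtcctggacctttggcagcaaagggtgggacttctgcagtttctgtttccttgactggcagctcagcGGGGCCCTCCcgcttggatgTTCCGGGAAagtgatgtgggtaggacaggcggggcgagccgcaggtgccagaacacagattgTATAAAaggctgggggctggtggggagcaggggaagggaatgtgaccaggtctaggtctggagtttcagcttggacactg

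The CD55 window held 2 CRE cores, the first of which began at −147 from the start, and 1 GC box at −46. The CRE core is found in 24.6% of all 35116 promoter windows of the same length and the GC box in 45.0%. The CD46 window held 3 GC boxes and 1 CRE core, and the CD59 window shown held 2 GC boxes and 1 STAT site, a motif of 7.66% of windows. CD59 has 4 such windows, and their matches differ. The second overlaps the one shown and holds the same motifs, the third holds none of those searched, and the last holds 3 AP-1 sites, the first at −117, with no GC box and no STAT site. CFB differed from the other windows shown in its TATA box at −30 from its start, its NFκB match at −112 and its lack of a GC box. It also held a STAT site at −92, as the CD59 window shown did at −128. The TATA box, STAT site and NFκB match are found in 11.5%, 7.66% and 11.3% of all windows. The AP-1 site is found in 7.71% of all windows, and the 4 windows shown hold none. A match describes the letters of a window and does not show that a factor binds there.

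FPKM is scaled to transcript length, so levels can be compared between genes. CD59 had the highest level, with a mean of 186 FPKM over the 6 tumors, and was above every other gene of the set in each tumor. CD46 followed at 77.0 FPKM, then CD55 at 62.1, C1R at 52.6, CLU at 46.3 and C1S at 27.8 FPKM. C3 at 8.06, SERPING1 at 4.52 and CFB at 3.34 FPKM were the lowest. Several neighbors in this order did not differ beyond their spread. CD46 was above CD55 in 4 of 6 tumors, CD55 above C1R in 4, C1R above CLU in 4, C3 above SERPING1 in 4 and SERPING1 above CFB in 3, whereas CLU was above C1S and C1S above C3 in all 6. The spread between tumors was small in CD46, CD59 and CLU and wide in the genes of low level. The highest tumor exceeded the lowest 1.39-fold in CD46, 1.74-fold in CD59, 1.96-fold in CLU, 2.36-fold in CD55, 3.04-fold in C1R and 3.62-fold in C1S, against 6.19-fold in SERPING1, 6.99-fold in CFB and 8.83-fold in C3.

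**Figure D1:**
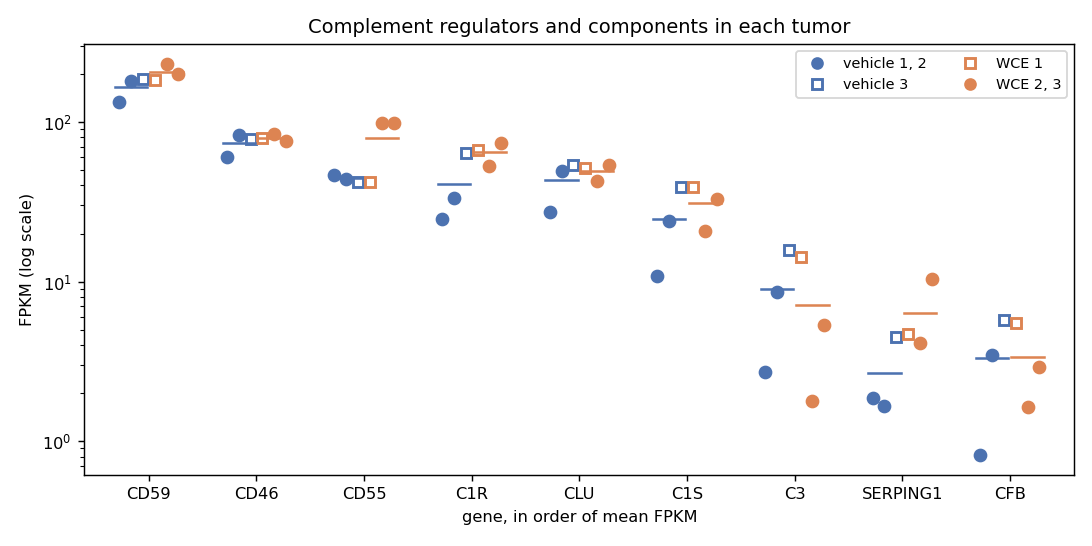
FPKM (log axis) of the 9 genes in each tumor, in order of mean FPKM, with vehicle-treated tumors in blue, WCE-treated tumors in orange, open squares for the nearly identical libraries and bars for group means (n = 3). CD55 is near 99 FPKM in WCE replicates 2 and 3 and between 41.9 and 46.9 FPKM in the other 4 tumors.

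CD55, the decay accelerator, is listed on chromosome 1 from 207494817 to 207534311 of hg19, with 1 transcription start site. It had 46.9, 44.2 and 42.3 FPKM with vehicle and 41.9, 98.5 and 98.9 FPKM with WCE. The vehicle-treated tumors lay close together, and WCE replicates 2 and 3 were far above them, whereas WCE replicate 1 was the lowest of all 6, beside vehicle replicate 3. The groups thus overlapped. The means were 44.5 ± 2.30 and 79.8 ± 32.8 FPKM (SD, n = 3 each), and the log2 fold change was 0.73 (SE 0.31). Fold changes here are differences in mean log2(FPKM + 1), and for genes of a few FPKM they come out smaller than the ratio of FPKM values. Without vehicle replicate 3 and WCE replicate 1 it was 1.10 (SE 0.099), from 45.5 to 98.7 FPKM. The stromal markers summed to 12.8 FPKM in WCE replicate 2 and 53.7 FPKM in WCE replicate 3, the 2 tumors with high CD55. Most of each sum came from a single marker, and a part of stroma in the CD55 values was not tested. The entries next to CD55 on the chromosome are other complement genes, C4BPA 176500 bases before it and CR2 93334 bases after it, and neither exceeded 0.0280 FPKM in any tumor.

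CD46, the cofactor, lies 391072 bases beyond CD55 on chromosome 1, from 207925383 to 207968861 of hg19. It had 60.3, 83.2 and 78.6 FPKM with vehicle and 79.1, 84.1 and 76.4 FPKM with WCE. Apart from vehicle replicate 1, which was lowest, all tumors lay within a narrow range. Its log2 fold change was 0.12 (SE 0.13), and 0.18 (SE 0.18) without the nearly identical libraries.

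CD59, the inhibitor of the terminal pore, is listed on chromosome 11 from 33724556 to 33758025 of hg19 with 3 start sites. It had 133, 181 and 185 FPKM with vehicle and 184, 232 and 199 FPKM with WCE. WCE replicates 2 and 3 were again the highest, but WCE replicate 3 exceeded vehicle replicate 3 by less than the gap between vehicle replicate 1 and the other vehicle-treated tumors. The log2 fold change was 0.31 (SE 0.16), and 0.47 (SE 0.18) without the nearly identical libraries.

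Summed over the 3 membrane regulators, the tumors had 240, 309 and 306 FPKM with vehicle and 305, 415 and 375 FPKM with WCE. CD55 made up 19.5%, 14.3% and 13.8% of this sum in the vehicle-treated tumors and 13.7%, 23.7% and 26.4% in the WCE-treated tumors. CD46 was below CD55 only in WCE replicates 2 and 3, where the ratio of CD46 to CD55 was 0.854 and 0.773, against 1.29 to 1.89 in the other 4 tumors. CD59 remained the largest share in every tumor, from 53.2% to 60.5%.

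**Figure D2:**
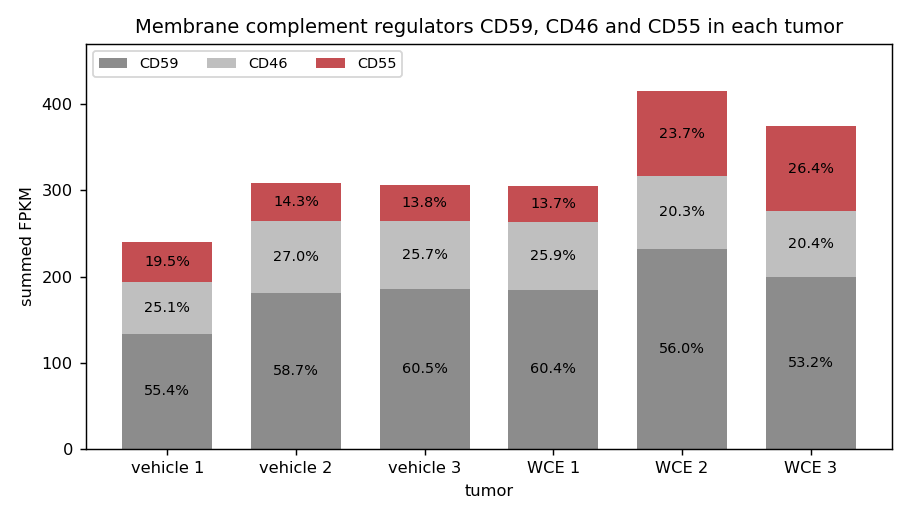
Summed FPKM of CD59 (dark grey), CD46 (light grey) and CD55 (red) in each tumor, with the percentage of the sum written in each segment. The sum is 415 and 375 FPKM in WCE replicates 2 and 3, where CD55 holds 23.7% and 26.4%, and at most 309 FPKM in the other 4 tumors.

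C1R and C1S, the proteases of the C1 complex, lie 9180 bases apart on chromosome 12 of hg19, C1S from 7167980 to 7178335 and C1R from 7187515 to 7245043. C1R had 24.5, 33.2 and 64.3 FPKM with vehicle and 66.6, 52.9 and 74.3 FPKM with WCE. Vehicle replicate 3 was above WCE replicate 2, so the groups overlapped. C1S had 10.9, 24.0 and 39.0 FPKM with vehicle and 39.4, 20.8 and 33.0 FPKM with WCE, and here the nearly identical libraries were the highest of all. The log2 fold change was 0.76 (SE 0.32) in C1R and 0.44 (SE 0.43) in C1S. Without the nearly identical libraries it was 1.11 (SE 0.22) in C1R and 0.66 (SE 0.40) in C1S. The ratio of C1R to C1S was 2.25, 1.38 and 1.65 in the vehicle-treated tumors and 1.69, 2.54 and 2.26 in the WCE-treated tumors.

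SERPING1, the inhibitor of both proteases, is listed on chromosome 11 from 57365027 to 57382326 of hg19. It was far below them, at 1.85, 1.66 and 4.51 FPKM with vehicle and 4.67, 4.13 and 10.3 FPKM with WCE. WCE replicate 3 stood above all others, and WCE replicate 2 was below vehicle replicate 3. Its log2 fold change was the largest of the 9 genes, at 0.99 (SE 0.37), and it was 1.47 (SE 0.38) without the nearly identical libraries.

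C3, the central component, is listed on chromosome 19 from 6677846 to 6720662 of hg19. It had 2.70, 8.60 and 15.8 FPKM with vehicle and 14.2, 1.79 and 5.31 FPKM with WCE. CFB, on chromosome 6 from 31913721 to 31919861 of hg19, had 0.816, 3.47 and 5.70 FPKM with vehicle and 5.50, 1.64 and 2.92 FPKM with WCE. In both genes the nearly identical libraries were the highest, vehicle replicate 2 came next, and vehicle replicate 1 and WCE replicate 2 were the lowest. The spread within a group thus exceeded the difference between groups. The log2 fold change was −0.39 (SE 0.70) in C3 and 0.10 (SE 0.50) in CFB, and −0.51 and 0.17 without the nearly identical libraries, with standard errors of 0.58 and 0.46. The ratio of C3 to CFB was 3.30, 2.47 and 2.77 in the vehicle-treated tumors and 2.58, 1.09 and 1.82 in the WCE-treated tumors. The 6 further CFB entries on alternative haplotypes of chromosome 6 were left out by the rule, and all were listed at 0.

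CLU, the chaperone, is listed on chromosome 8 from 27454434 to 27472328 of hg19. It had 27.3, 49.2 and 53.6 FPKM with vehicle and 51.5, 42.6 and 53.4 FPKM with WCE. Vehicle replicate 1 was the lowest and the other 5 tumors lay close together. The log2 fold change was 0.23 (SE 0.24), and 0.37 (SE 0.29) without the nearly identical libraries. Vehicle replicate 1 was the lowest tumor in 6 of the 9 genes (CD46, CD59, CFB, C1R, C1S and CLU), and without it the log2 fold change was 0.16 in CD59, 0.46 in C1R, 0.77 in CD55 and 0.85 in SERPING1 and lay between −0.98 and −0.02 in the other 5 genes.

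Across the set, 8 of the 9 genes had a higher mean log2(FPKM + 1) in WCE-treated tumors and C3 a lower one, with a median log2 fold change of 0.31. Over all 13287 entries tested, 6459 were higher and the median was −0.0063. In 0 of the 9 genes was every WCE-treated tumor above every vehicle-treated tumor, an order found in 6.37% of all entries, and the reverse order, found in 6.4%, was also seen in 0. With the nearly identical libraries left out, both WCE-treated tumors were above both vehicle-treated tumors in 4 genes (CD55, CD59, C1R and SERPING1), against 25.7% of all entries, and below them in 0, against 27.8%. The median of the 9 genes was then 0.47. These counts describe the genes and are read no further, since the same contrast had chosen them.

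**Figure D3:**
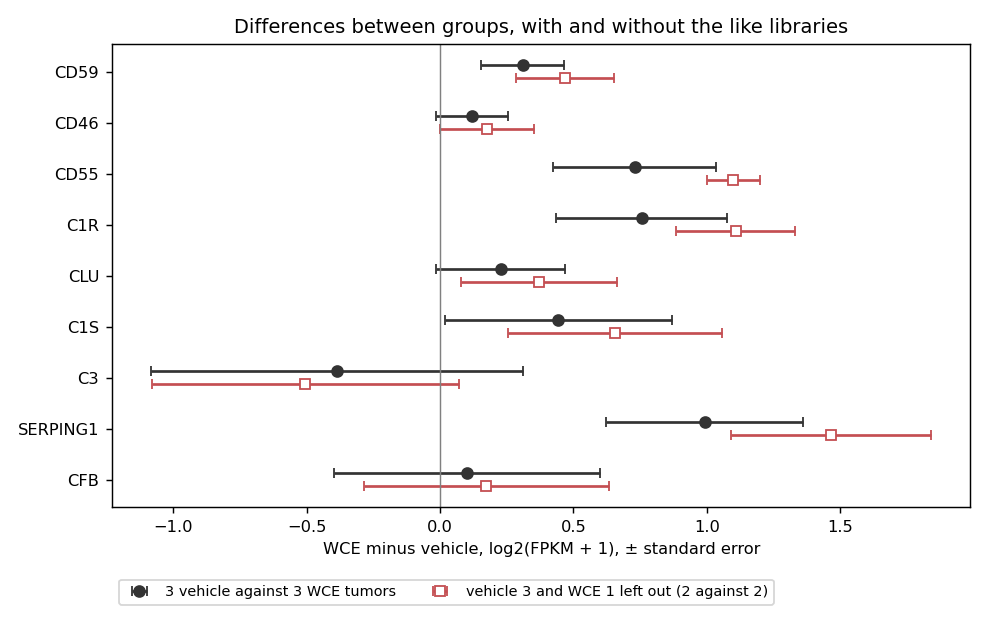
Difference between WCE-treated and vehicle-treated tumors in log2(FPKM + 1) for each gene, with standard errors from limma, for all 6 tumors (black circles) and without vehicle replicate 3 and WCE replicate 1 (red squares). CD55 has the shortest error bar once these libraries are left out, at 1.10 ± 0.099. It was chosen by its adjusted p without WCE replicate 1, which favors a short bar. C3 is the only gene below 0.

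The other genes of the system were examined through a list of 51, of which 50 were listed in the table in 51 entries. Only 8 entries reached a mean of 0.5 FPKM and 11 were listed at 0 in all 6 tumors. Among these 11 were C1QA, C1QB and C1QC, the chains of the recognition protein that carries C1R and C1S. The entries are human loci, so a 0 does not show that mouse host cells lacked these transcripts. Of 7 terminal pathway genes only C5 passed the minimum, of 4 membrane regulators only SUSD4, and of 9 receptors only ITGB2, an integrin chain. Both entries of C4A, which lie in near-identical copies of the locus, were under the minimum. PTX3, a secreted pattern recognition protein, was by far the highest, at 62.9, 196 and 154 FPKM with vehicle and 154, 129 and 89.4 FPKM with WCE. Its log2 fold change was −0.03 (SE 0.40), and −0.05 (SE 0.54) without the nearly identical libraries.

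By limma on log2(FPKM + 1), 0 of the 8 genes passed an adjusted p of 0.05, where 0.00753% of all entries did, and 0 had an unadjusted p under 0.05, where 7.1% did. The unmoderated test gave 0 at both thresholds as well. SUSD4, a membrane protein with sushi domains like those of CD55, had 0.503, 0.686 and 0.767 FPKM with vehicle and 0.517, 3.17 and 2.16 FPKM with WCE. As in CD55, WCE replicates 2 and 3 stood above the other 4 tumors, while WCE replicate 1 was within the range of the vehicle-treated tumors. The log2 fold change was 0.72 (SE 0.34), with an adjusted p of 0.623 by limma. Without the nearly identical libraries it was 1.19 (SE 0.19), with unadjusted p = 0.00135 and adjusted p = 0.173 by limma. In that comparison 2 of the 8 genes had an unadjusted p under 0.05, 1 higher and 1 lower with WCE. Of all entries 18.4% did, and 0 of the 8 had an adjusted p under 0.05. Without WCE replicate 1 alone, the adjusted p of SUSD4 was 0.103 by limma.

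C5, the first protein of the terminal pathway, was the single gene of the 8 whose groups did not overlap, at 10.8, 9.63 and 9.42 FPKM with vehicle and 9.40, 9.21 and 8.84 FPKM with WCE. This was 1 of 8 genes with every WCE-treated tumor below every vehicle-treated tumor, an order found in 6.4% of all entries, and 0 of 8 had the reverse order, found in 6.37%. The gap between the groups lay between the nearly identical libraries, and the log2 fold change in C5 was −0.11 (SE 0.097, adjusted p = 0.727 by limma) and −0.16 (SE 0.12) without these libraries. ITGB2, C1RL, a relative of C1R, and CFD, the protease that activates factor B, had log2 fold changes of −0.18, 0.17 and −0.06 with standard errors of 0.21, 0.19 and 0.10. Without the nearly identical libraries these were −0.24, 0.29 and −0.05, with standard errors of 0.21, 0.19 and 0.13. COLEC10, a collectin, was near the minimum with a mean of 0.502 FPKM and a log2 fold change of 0.36 (SE 0.21), or 0.48 (SE 0.27) without these libraries. The loci of PTX3, ITGB2 and C1RL are each shared with 1 other entry.

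**Figure D4:**
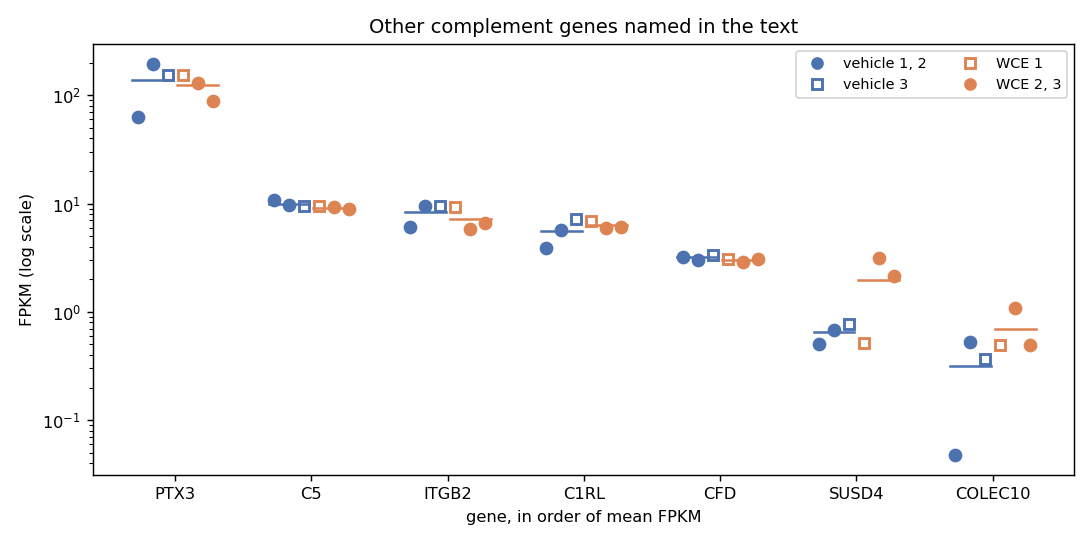
FPKM (log axis) of 7 other complement genes with a mean of at least 0.5 FPKM in each tumor, with colors, squares and bars as in the plot of the 9 genes. WCE replicates 2 and 3 lie above the other tumors in SUSD4, at 3.17 and 2.16 FPKM.

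CD55 and CD59 are held in the membrane by a glycosylphosphatidylinositol (GPI) anchor, and 29 genes of its synthesis and remodeling were examined. All 29 were listed and passed the minimum. Their median log2 fold change was 0.0015, with 15 genes higher and 14 lower, and the range was −0.31 to 0.26. None passed the adjusted threshold of limma, and 1 had an unadjusted p under 0.05, where 7.1% of all entries did. This was PIGT, a subunit of the transamidase that attaches the anchor, at 79.2, 85.0 and 94.0 FPKM with vehicle and 93.2, 111 and 107 FPKM with WCE. Its log2 fold change was 0.26 (SE 0.11) (unadjusted p = 0.0456 and adjusted p = 0.623 by limma), and by the unmoderated test 0 of the 29 genes had an unadjusted p under 0.05. DPM1 and PIGY, which with PIGT had the highest levels, had log2 fold changes of −0.0075 and −0.21 with standard errors of 0.087 and 0.13. Without the nearly identical libraries the log2 fold change was 0.40 (SE 0.10) in PIGT, −0.01 (SE 0.11) in DPM1 and −0.35 (SE 0.11) in PIGY, with adjusted p-values of 0.197, 0.957 and 0.222 by limma. In that comparison 5 of the 29 genes had an unadjusted p under 0.05, against 18.4% of all entries, and 0 an adjusted one.

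The entries whose profile over the 6 tumors was nearest to that of CD55 were found by the root mean square difference of log2(FPKM + 1), after each entry was centered on its own mean, among 6881 entries with a mean of at least 10 FPKM that are not in the set. The nearest was NES, which encodes the intermediate filament protein nestin, at a difference of 0.081, with 43.3, 41.4 and 37.0 FPKM with vehicle and 37.9, 88.9 and 78.0 FPKM with WCE. GOLM1, a Golgi membrane protein, followed at 0.14, then the entry that joins DBNDD2 and SYS1 at 0.16, NGEF, a guanine nucleotide exchange factor, at 0.17, and SIPA1L2 at 0.18. For comparison, the SD of CD55 itself over the 6 tumors was 0.60 on this scale. The entry of DBNDD2 and SYS1 shares its locus with 1 other entry. In all of them WCE replicates 2 and 3 were the highest, and the likeness describes these 6 tumors, of which a pair was nearly the same.

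**Figure D5:**
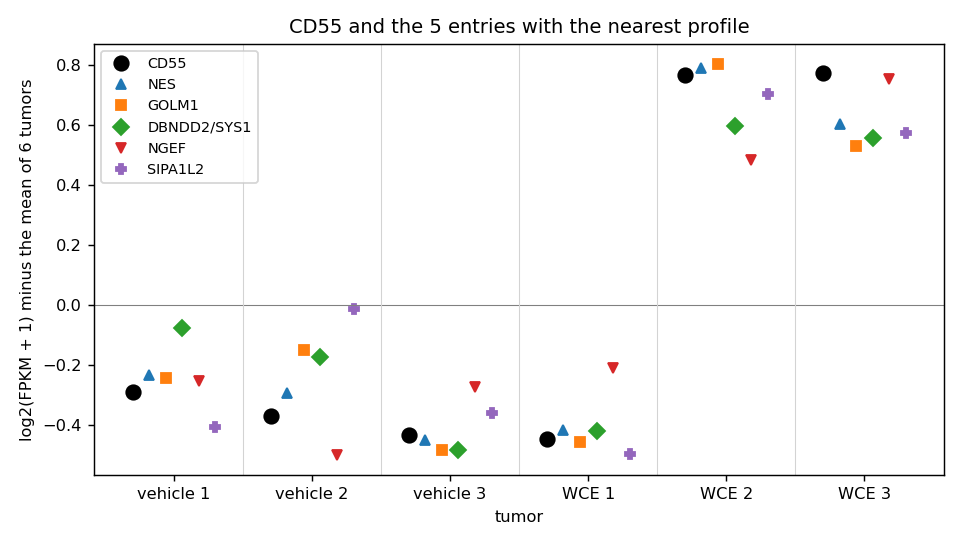
log2(FPKM + 1) minus the mean of the 6 tumors for CD55 (black circles) and the 5 entries with the nearest profiles, by tumor. All 6 entries are above 0 in WCE replicates 2 and 3 and below 0 in the other 4 tumors, with NES nearest to CD55 at a root mean square difference of 0.081.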

How the data were processed

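RNA was taken from 6 frozen tumors, and libraries were made with a stranded mRNA kit. The values the authors deposited are FPKM, fragment counts scaled to transcript length and library size, in 1 table with a column for each tumor. The submitters' processing notes name TopHat2 2.0.13, Cufflinks and the builds hg19 and mm10, without their roles, and how mouse reads were handled is not given in the sources used here. Loci are those of the table, counted from 1. No column was left out. With no read counts, the depth is known only in relative terms and no counting intervals are given.

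Tests used log2(FPKM + 1) of the 13287 entries whose mean reached 0.5 FPKM, in limma 3.58.1 in R 4.3.3 (mean-variance trend, two-sided, Benjamini-Hochberg adjustment over all entries, threshold 0.05). The fit was tested on simulated data. Symbols were matched exactly or by an older symbol (C5AR2). The 9 genes, the lists and the exclusion of vehicle replicate 3 with WCE replicate 1 were chosen with earlier results of these data known. Named beyond the 9 genes were 7 other complement genes and the 3 GPI genes with the highest means, those with an unadjusted p under 0.05 or, for complement, separated groups, the 5 entries nearest to CD55, its neighbors and the markers. Values of 1 complement gene and of 3 marker genes are not reported here, and the counts include them. The labels do not say whether tumors with the same number belong together, and p-values measure the spread between these tumors. Tables and figures were made in Python 3.11.15 with numpy 2.4.6, pandas 2.3.3 and matplotlib 3.10.9.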

Additional observations from a re-analysis of the deposited data

How the results depend on the processing

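The log2 fold change of CD55 stayed positive in all settings run, from 0.53 to 1.13, and so did those of CD59, C1R and SERPING1. In other settings the direction changed in CD46, C1S and CLU (1 setting each, without vehicle replicate 1), in C3 (when vehicle replicate 3 or WCE replicate 2 was left out) and in CFB (with array weights, without vehicle replicate 1 and without WCE replicate 1). With 1 tumor left out at a time the median of the 9 genes lay between −0.019 (without vehicle replicate 1) and 0.51 (without vehicle replicate 3). None of the 8 other complement genes passed the adjusted threshold in any setting. Their number with an unadjusted p under 0.05 was 0 as designed. With array weights it was 3, against 3201 of all 13287 entries, and with the replicate block 1, against 1049. Of the 8 genes 2 were under it without both nearly identical libraries and from 0 to 2 with 1 tumor left out. With no filter all 51 entries of the list were fitted. Of these, 2 had an unadjusted p under 0.05, against 1051 of all 24000 entries. Of the GPI genes 1 was under it as designed, 0 without the mean-variance trend and in the unmoderated test, 4 with array weights, 2 with the replicate block, 5 without the nearly identical libraries and from 0 to 4 with 1 tumor left out. Over all entries 1 passed the adjusted threshold as designed, 0 with no filter and in the unmoderated test, 5 without the nearly identical libraries and from 1 to 7 with 1 tumor left out, most of them without WCE replicate 1. Of the 13287 entries, 944 had an unadjusted p under 0.05 as designed, 593 in the unmoderated test, 3201 with array weights and 1049 with the replicate block. Without the nearly identical libraries 2449 did, and 219 to 2033 with 1 tumor left out. For none of these changes was the cause tested. With upper-quartile scaling 218 entries with an unadjusted p under 0.05 were higher and 704 lower, against 502 and 442 as deposited, while the median over all entries moved by less than 0.1. The deviations of same-number tumors had a mean correlation of −0.058, against 0.028 for other pairs. The other pairs include the nearly identical libraries themselves, at 0.363. Among same-number pairs, those of replicates 1 and 3 each hold 1 of these libraries, at −0.241 and −0.093. The pair of replicates 2 holds neither and was at 0.160. Whether a shared number goes with a shared deviation therefore cannot be decided from these values. The block left the number of entries past the adjusted threshold at 1.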
